A study of Homo sapiens with 12 samples.

Results

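The genes described here are 10 established transcriptional targets of the tumour suppressor p53: CDKN1A, MDM2, SESN1, SESN2, GDF15, BAX, BBC3, FAS, TP53I3 and ZMAT3. They were taken by symbol from a table of raw read counts that lists 60656 Ensembl gene IDs, and all 10 were found and passed the filter on low counts that left 19636 genes for testing. RNA-seq libraries had been made from the human metastatic melanoma lines A2058, SKMEL-5 and A375, all grown under 1% oxygen (hypoxia) and under atmospheric oxygen (normoxia), with 2 libraries per line and condition. The series describes the 2 libraries of a group as biological duplicates, and the time spent at low oxygen is not given in the sources used here. Normoxia is the submitters' control, and the question put to the series was what low oxygen does to these cells.

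p53 is a transcription factor that is held at a low level by the ubiquitin ligase MDM2 and accumulates when DNA damage, oncogene activity, nutrient shortage or severe oxygen shortage frees it from that ligase. It binds DNA as a tetramer and switches on genes that stop the cell cycle (CDKN1A), restrain growth signalling and oxidative damage (SESN1, SESN2), start apoptosis (BAX, BBC3, FAS), make reactive oxygen (TP53I3), bind RNA (ZMAT3) or send a signal out of the cell (GDF15), and it also switches on MDM2 itself, which closes a feedback loop. Several of these genes answer to other regulators too: GDF15, SESN2 and BBC3 can be induced through the integrated stress response, the pathway of ATF4.

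A p53 response element consists of a pair of adjoining 10-base elements, each with a fixed C and a fixed G in its middle. RefSeq promoter windows on GRCh38.p14, which run from 250 bases before a gene's start to 50 after it, were searched for the 20-base element with no spacer, at most 3 mismatches and the fixed C and G of each element kept. The motif reads the same on both strands. Of 35116 windows 392 (1.12%) held a match, as did 5 of the 18 windows of the 10 genes. By gene, 373 of 27305 (1.37%) had a match in at least 1 window, and 4 of the 10 did. These 4 are shown because they place the known kind of binding sequence beside the genes whose levels follow, with the 20 matching bases in capitals, on the strand of the gene.
MDM2: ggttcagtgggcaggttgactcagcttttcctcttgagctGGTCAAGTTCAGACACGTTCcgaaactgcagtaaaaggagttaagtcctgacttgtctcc
SESN1: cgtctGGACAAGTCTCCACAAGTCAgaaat
GDF15: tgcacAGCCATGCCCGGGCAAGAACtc
FAS: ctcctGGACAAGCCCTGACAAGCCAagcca
The MDM2 stretch is chr12:68808883-68808982 on the plus strand, within an intron of the gene, and its match with 2 mismatches lies 94 bases before the internal start site that is known as the p53-driven promoter of MDM2. The SESN1 stretch, chr6:109009013-109009042 on the minus strand, is intronic and holds a match with 3 mismatches 49 bases before a start. The GDF15 match, in chr19:18386181-18386207 on the plus strand, has 3 mismatches, begins 29 bases after the start and spans the end of the 5′ UTR and the start of the coding sequence. The FAS match, in chr10:88991304-88991333 on the plus strand, has 2 mismatches and lies 122 bases before a start, in an exon of a transcript that is neither UTR nor coding there. A match is a description of the sequence and shows no binding.

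The libraries held 33831569 to 54202819 counts. A count of 0 allowed a level of up to 0.0553 to 0.0887 CPM (the count of a gene scaled to the library total), counting error only. Levels of single genes below are CPM scaled by edgeR's TMM factors. The hypoxia labels were checked on 12 genes induced by the hypoxia-inducible factors: their summed level was 3551 to 8099 CPM in hypoxic libraries, against 591 to 1111 CPM in normoxic libraries, with no overlap. SOX10, a melanocyte-lineage factor, was high in all lines, and S100B was detected in all of them. The pigment-cell genes TYR and MLANA had 0 counts in every A375 and SKMEL-5 library. PMEL and DCT averaged at most 1.17 CPM in those lines, against 1026 and 1122 CPM in A2058. MITF set A375 and SKMEL-5 apart, at 18.0 to 28.5 CPM in A375 and 93.8 to 183.5 CPM in SKMEL-5. The libraries labelled SKMEL-5 correlated with those labelled A375 at r = 0.912 to 0.990, as closely as A375 libraries with each other (0.917 to 0.982), and A2058 stood further off (0.810 to 0.880), so that A375 and SKMEL-5 values are also given apart where a line difference rests on them. A shared first principal component, 47.1% of the variance within lines, set off 3 hypoxic libraries from the other 9: the second of A2058, the first of A375 and the first of SKMEL-5 by their replicate numbers. The members' hypoxia differences averaged over the lines, and their called line differences in hypoxia, are given with and without these 3. Summed fibroblast markers (COL1A1, DCN, LUM, PDGFRB) were 62.2 to 84.0 CPM in hypoxic A2058 and 23.9 to 27.8 CPM in normoxic A2058, against 9.87 to 18.8 CPM in the other libraries. The markers did not move together. COL1A1 and LUM averaged 26.8 and 19.4 CPM in A2058, against at most 2.59 and 1.86 CPM in the other lines. DCN averaged at most 1.87 CPM in any line. PDGFRB was lower in A2058, at 1.44 CPM, against 10.4 in A375 and 8.61 in SKMEL-5. Blood markers summed to at most 0.226 CPM. The keratinocyte markers KRT5, KRT14 and DSG3 summed to 0.151 to 1.10 CPM in A2058, against 2.41 to 19.4 CPM in the other lines. Nearly all of this sum was KRT14, with a mean of 0.506 CPM for A2058, against 10.8 CPM (A375) and 12.3 CPM (SKMEL-5). KRT5 reached at most 0.157 CPM in any library, and DSG3 had 0 counts in every library. Several members share the split of KRT14 by line, and the part of keratinocyte markers in the line differences below was not tested. In bulk RNA, fewer cells that express a gene and less RNA per cell cannot be told apart.

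None of the 10 genes was called as changed by hypoxia over the 3 lines. Hypoxia was set against normoxia in each line, and the 3 log2 differences were averaged in edgeR's quasi-likelihood test with Benjamini-Hochberg adjustment over all 19636 genes, with an adjusted p under 0.05 as the call. By this rule 1.12% of all tested genes were called, 0.978% of them higher in hypoxia and 0.143% lower. Of the 10 differences 7 were above 0 and 3 below, from -0.51 for BAX to 1.76 for GDF15, and their median was 0.14, against 0.017 over all tested genes. At an unadjusted p under 0.05 the count was 4 of 10 (GDF15, BAX, BBC3 and ZMAT3), against 19.0% of all tested genes. DESeq2 called 1 of the 10, GDF15, and 7.86% of all genes, and limma-voom called 0 of the 10 and 0.906% of all genes. With the 3 libraries that stood apart left out, 0 of 10 were called (all genes 0.147%), the median was -0.039 (all tested genes -0.047), and CDKN1A (-0.22), BBC3 (-0.019) and FAS (-0.19) lay below 0. Within single lines no member was called either, where 0.0102% of genes were called in A2058 and 0 in each of the other lines. At an unadjusted p under 0.05 the members numbered 0 in A2058 (all genes 9.16%), 2 in A375 (5.60%) and 2 in SKMEL-5 (6.53%).

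**Figure D1:**
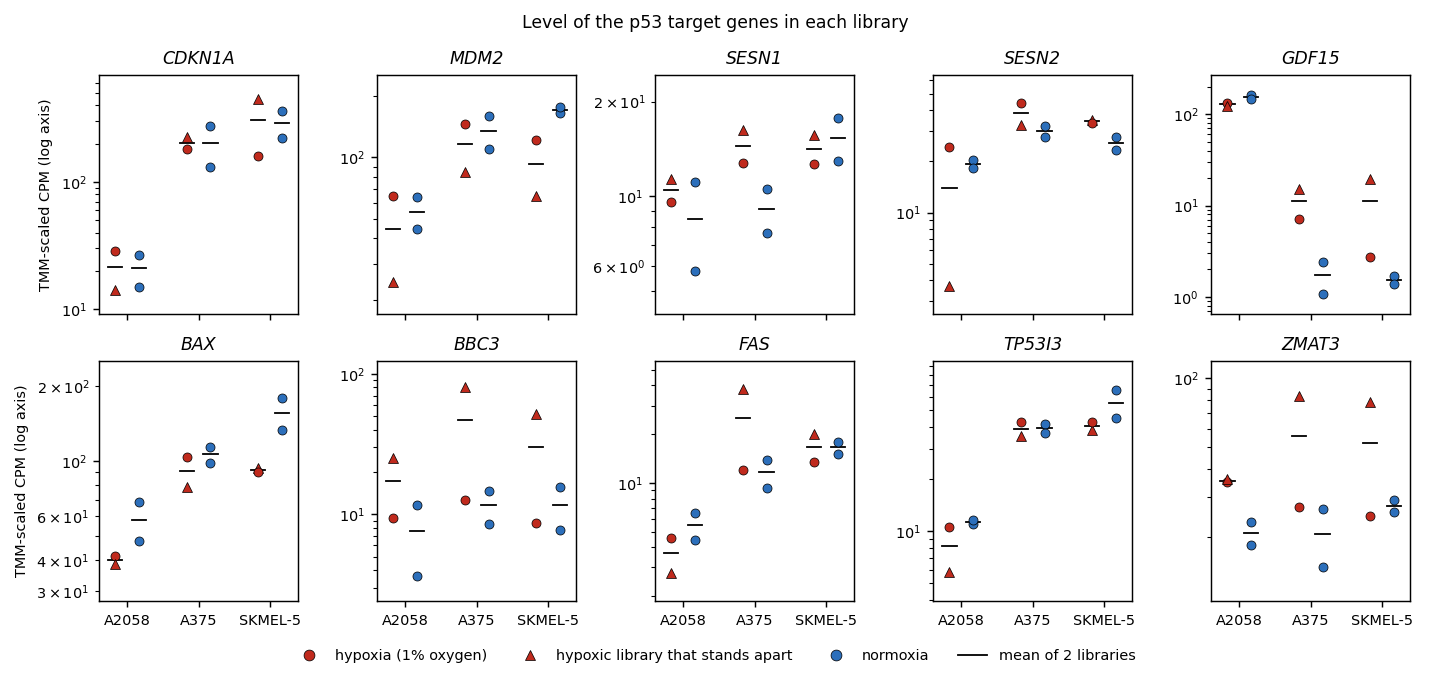
Levels of the 10 p53 target genes in each library (TMM-scaled CPM, log axis), by line, with hypoxia left of normoxia in each line, triangles for the 3 hypoxic libraries that stood apart and a bar for the mean of 2. GDF15 was the 1 gene with all 4 A2058 libraries above the other 8, and CDKN1A, BAX, FAS and TP53I3 had all 4 A2058 libraries below them.

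The arrest gene CDKN1A (ENSG00000124762.14, chr6:36676460-36687339), which encodes the cyclin-dependent kinase inhibitor p21, had 28.5 and 14.1 CPM in hypoxic A2058, against 14.95 and 26.9 CPM in normoxic A2058. In A375 it had 225 and 180.1 CPM in hypoxia and 276 and 131 CPM in normoxia. In SKMEL-5 it had 450.4 and 160.3 CPM in hypoxia and 361 and 221 CPM in normoxia. The 2 conditions overlapped in all 3 lines, while the libraries of A2058 were far below all others. The mean difference over the lines was 0.031 ± 0.33 on the log2 scale (SE; edgeR adjusted p = 0.996), and each line on its own lay between -0.0050 and 0.070. MDM2 (ENSG00000135679.25, chr12:68808176-68850686), the p53 antagonist of the feedback loop, had 64.9 and 24.4 CPM in hypoxic A2058, against 44.3 and 63.7 CPM in normoxic A2058. Its A375 libraries had 85.1 and 146 CPM in hypoxia and 159 and 109 CPM in normoxia. In SKMEL-5 the values were 64.8 and 121.5 CPM in hypoxia and 164.5 and 178 CPM in normoxia, and only there were the conditions apart. MDM2 was lower in the mean of each line, by 0.46 ± 0.29 over the 3 lines, and missed the threshold (edgeR adjusted p = 0.406). Leaving out the 3 libraries that stood apart gave -0.059 ± 0.24 (edgeR adjusted p = 0.990).

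The sestrins curb the growth kinase mTORC1 and oxidative damage, and neither was called in any comparison below. SESN1 (ENSG00000080546.13, chr6:108986437-109094819) spanned 9.60 to 16.2 CPM in the 6 hypoxic libraries (median 12.7) and 5.81 to 17.7 CPM in the 6 normoxic libraries (median 10.8). Its hypoxic libraries were above the normoxic ones in A375 alone. SESN2 (ENSG00000130766.5, chr1:28259527-28282491) had 24.2 and 3.71 CPM in hypoxic A2058, against 20.3 and 18.2 CPM in normoxic A2058. In A375 it had 32.9 and 44.1 CPM in hypoxia and 28.0 and 32.3 CPM in normoxia, and in SKMEL-5 35.0 and 33.8 CPM in hypoxia and 27.7 and 23.4 CPM in normoxia. Hypoxic libraries were above normoxic ones in A375 and SKMEL-5, and the lowest value of all was the A2058 hypoxia 2 library. The mean differences were 0.29 ± 0.24 for SESN1 (edgeR adjusted p = 0.538) and 0.11 ± 0.36 for SESN2 (edgeR adjusted p = 0.914). They were 0.11 ± 0.29 for SESN1 (edgeR adjusted p = 0.956) and 0.40 ± 0.19 for SESN2 (edgeR adjusted p = 0.511) once the 3 libraries that stood apart were left out.

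GDF15 (ENSG00000130513.6, chr19:18374731-18389176), a secreted stress cytokine, had the widest contrast of the 10. In hypoxic A2058 it had 133 and 122 CPM, against 163 and 147 CPM in normoxic A2058. The A375 libraries had 15.3 and 7.13 CPM in hypoxia, against 1.08 and 2.39 CPM in normoxia. The SKMEL-5 libraries had 19.6 and 2.77 CPM in hypoxia, against 1.70 and 1.38 CPM in normoxia. Hypoxic libraries were above normoxic ones in A375 and SKMEL-5 and below them in A2058, without overlap in any line. The 3-line mean was 1.76 ± 0.42 (unadjusted p = 0.00162, edgeR adjusted p = 0.0740). By line the log2 differences were 2.69 ± 0.76 in A375 (edgeR adjusted p = 0.840), 2.86 ± 0.77 in SKMEL-5 (edgeR adjusted p = 0.679) and -0.28 ± 0.70 in A2058 (edgeR adjusted p = 0.955). An F test of whether the 3 responses were equal gave an unadjusted p of 0.0186 for GDF15 and an edgeR adjusted p of 1, and no tested gene was called by it; GDF15 was the 1 member under an unadjusted p of 0.05, as 1.60% of all genes were. Without the 3 libraries that stood apart the 3-line mean was 0.87 ± 0.27 (edgeR adjusted p = 0.318).

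Among the genes of apoptosis, the effector BAX and the BH3-only activator BBC3 (PUMA) lay on opposite sides of 0. BAX (ENSG00000087088.20, chr19:48954815-48961798), which forms the pore in the mitochondrial outer membrane, had 41.6 and 38.5 CPM in hypoxic A2058, against 68.3 and 47.8 CPM in normoxic A2058. It had 78.5 and 104 CPM in hypoxia against 98.7 and 114 CPM in normoxia in A375. In SKMEL-5 it had 93.7 and 90.8 CPM in hypoxia, against 179 and 134 CPM in normoxia. Hypoxic libraries were below normoxic ones in A2058 and SKMEL-5 and overlapped in A375, with a 3-line mean of -0.51 ± 0.19 (edgeR adjusted p = 0.188), and -0.46 ± 0.23 without the 3 libraries that stood apart (edgeR adjusted p = 0.536). BBC3 (ENSG00000105327.18, chr19:47220822-47232766) had 9.45 and 25.3 CPM in hypoxic A2058, against 11.6 and 3.66 CPM in normoxic A2058. A375 held 80.9 and 12.7 CPM in hypoxia and 14.6 and 8.50 CPM in normoxia, and SKMEL-5 held 51.8 and 8.60 CPM in hypoxia and 15.6 and 7.67 CPM in normoxia. In each line 1 hypoxic library was high and the other lay among the normoxic ones. The 3-line mean of BBC3 was 1.53 ± 0.57 (edgeR adjusted p = 0.192), and without the 3 libraries that stood apart it was -0.019 ± 0.42 (edgeR adjusted p = 1.00). The death receptor FAS (ENSG00000026103.22, chr10:88990582-89015785) had 4.59 and 2.76 CPM in hypoxic A2058, against 4.44 and 6.47 CPM in normoxic A2058. It had 38.1 and 12.1 CPM in hypoxia against 13.9 and 9.33 CPM in normoxia in A375, and 20.1 and 13.4 CPM in hypoxia against 18.0 and 15.2 CPM in normoxia in SKMEL-5. All conditions overlapped within lines, and the 3-line mean was 0.18 ± 0.31 (edgeR adjusted p = 0.789). Reads of FAS and of ACTA2, which overlaps it on the opposite strand and reached 43.5 CPM, could not be separated, since the strand setting of the counting is not given in the sources used here.

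TP53I3 (ENSG00000115129.14, chr2:24077433-24085861), a quinone oxidoreductase, had 10.6 and 5.81 CPM in hypoxic A2058, against 10.98 and 11.7 CPM in normoxic A2058. In A375 it had 35.5 and 42.9 CPM in hypoxia and 42.0 and 36.8 CPM in normoxia, and in SKMEL-5 38.6 and 43.1 CPM in hypoxia and 65.6 and 45.4 CPM in normoxia. Hypoxic libraries were below normoxic ones in A2058 and SKMEL-5, with a 3-line mean of -0.31 ± 0.21 (edgeR adjusted p = 0.438), and -0.14 ± 0.21 without the 3 libraries that stood apart (edgeR adjusted p = 0.886). ZMAT3 (ENSG00000172667.11, chr3:179017223-179072279), a zinc-finger protein that binds RNA, had 35.0 and 35.9 CPM in hypoxic A2058, against 18.4 and 23.4 CPM in normoxic A2058. A375 libraries had 83.8 and 27.2 CPM in hypoxia and 26.4 and 14.8 CPM in normoxia. In SKMEL-5 it had 78.9 and 24.6 CPM in hypoxia and 25.8 and 28.99 CPM in normoxia. Its hypoxic libraries were above the normoxic ones in A2058 and A375, and in SKMEL-5 they lay on either side of them. The 3-line mean was 1.04 ± 0.35 (edgeR adjusted p = 0.158), and 0.31 ± 0.24 without the 3 libraries that stood apart (edgeR adjusted p = 0.724).

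**Figure D2:**
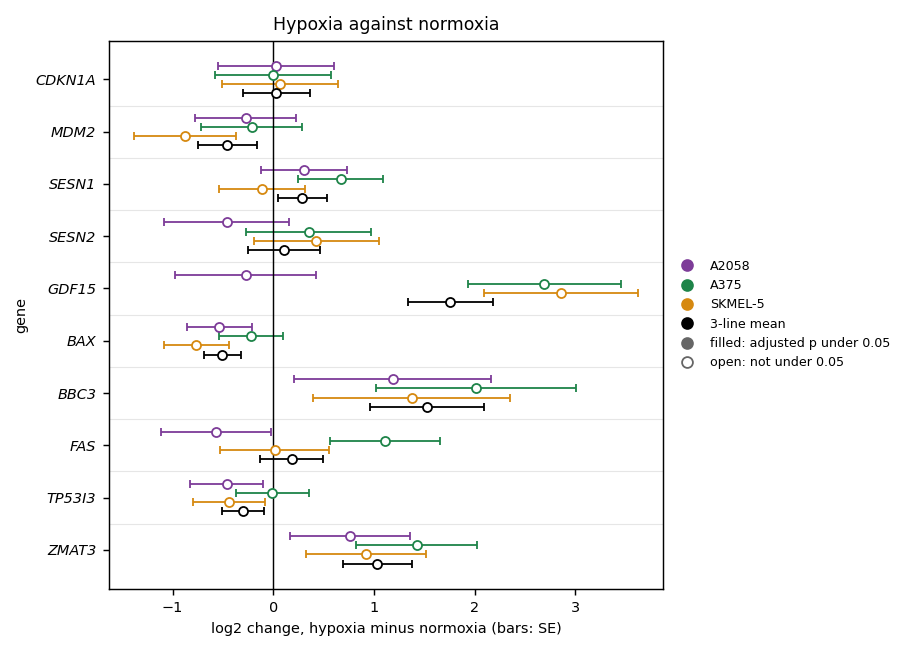
Hypoxia minus normoxia on the log2 scale for the 10 genes, per line and as the mean of the 3 lines, with bars of 1 SE. No point passed an adjusted p of 0.05; GDF15 was at 2.69 in A375 and 2.86 in SKMEL-5 and at -0.28 in A2058.

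No member had hypoxic and normoxic libraries apart in the same direction in all 3 lines, where 4.86% of tested genes were higher and 2.79% lower in that way. In A2058 the libraries of 1 member were apart upwards (ZMAT3; all genes 20.5%) and of 3 downwards (GDF15, BAX, TP53I3; 18.6%). In A375 4 were apart upwards (SESN1, SESN2, GDF15, ZMAT3; 18.1%) and 0 downwards (14.2%). In SKMEL-5 2 were apart upwards (SESN2, GDF15; 18.5%) and 3 downwards (MDM2, BAX, TP53I3; 19.7%). SESN2, BAX, TP53I3 and ZMAT3 were each apart in more than 1 line in a single direction, and GDF15 was apart in all 3 lines, downwards in A2058 and upwards in the others. The share of all genes with such patterns across lines was not counted, so they are a description only.

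MDM4, the partner of MDM2 in restraining p53, stayed between 38.8 and 53.4 CPM in hypoxic libraries and between 39.6 and 60.1 CPM in normoxic ones (difference -0.035 ± 0.17, edgeR adjusted p = 0.949). PPM1D, a phosphatase that p53 induces and that turns the damage signal off, spanned 18.5 to 29.9 CPM in hypoxic libraries and 19.5 to 40.4 CPM in normoxic ones (-0.27 ± 0.17, edgeR adjusted p = 0.392).

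The 3 hypoxic libraries that stood apart were chosen by the spread of all tested genes, the members among them, so their values are a description. The library that stood apart is compared here with the other hypoxic library of its line. BBC3 was higher by 1.42 on the log2 CPM scale for A2058, by 2.67 for A375 and by 2.59 for SKMEL-5. It was the 1 member at least 2-fold higher in all 3 lines, as 3.71% of tested genes were. SESN1 and ZMAT3 were also higher in all 3, ZMAT3 by 0.038 for A2058, 1.62 for A375 and 1.68 for SKMEL-5; with BBC3 that made 3 of 10, against 24.9% of all genes. Normoxic replicates also differed: replicate 1 minus replicate 2 was 0.93 (A2058), 0.46 (A375) and 0.46 (SKMEL-5) for SESN1, each wider than its hypoxic difference of 0.24 for A2058, 0.34 for A375 and 0.30 for SKMEL-5. For BBC3 this normoxic difference was 1.65 for A2058, 0.78 for A375 and 1.02 for SKMEL-5. MDM2 differed by -1.41 for A2058, -0.78 for A375 and -0.91 for SKMEL-5, and TP53I3 was lower in all 3 as well, 2 of 10 against 29.9% of all genes; 0 were at least 2-fold lower in all 3, as 4.95% of genes were. CDKN1A differed in sign, at -1.01 for A2058, 0.32 for A375 and 1.49 for SKMEL-5. GDF15 was at -0.12 for A2058, 1.09 for A375 and 2.81 for SKMEL-5. CDKN1A and MDM2, both direct p53 targets, lay on opposite sides of 0 in A375 and SKMEL-5. What set these libraries apart was not tested.

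**Figure D3:**
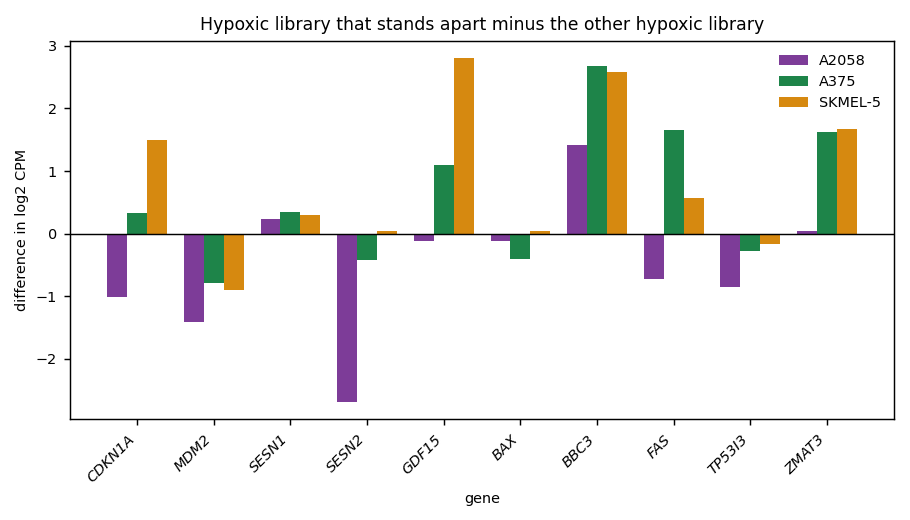
Difference in log2 CPM between the hypoxic library that stood apart and the other hypoxic library of the same line, for the 10 genes in A2058, A375 and SKMEL-5; bars start at 0. BBC3 is above 1 in all 3 lines and MDM2 below 0 in all 3.

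Between A2058 and the other lines more of the 10 genes were called than between oxygen levels. In normoxia 5 of the 10 genes were called between A2058 and the mean of A375 and SKMEL-5, where 17.9% of all tested genes were called: GDF15 was higher in A2058 (all genes 9.51% higher), and CDKN1A, MDM2, BAX and TP53I3 were lower (all genes 8.43% lower). In hypoxia 5 of 10 were called again, where 21.1% of all genes were: GDF15 was higher (11.2%), and CDKN1A, BAX, FAS and TP53I3 were lower (9.95%). Without the 3 libraries that stood apart the hypoxic count was 2 (GDF15 and TP53I3), in a fit that called 9.28% of all genes. The median difference of the 10 was -0.88 in normoxia (all tested genes -0.031) and -1.21 in hypoxia (all tested genes -0.055). At an unadjusted p under 0.05 the members numbered 6 of 10 in normoxia (all genes 30.2%) and 7 of 10 in hypoxia (33.7%). In both conditions 9 of 10 differences were below 0. Over all 4 A2058 libraries against all 8 others, 4 members lay wholly below (all genes 11.9%) and 1 wholly above (10.6%). Within normoxia 6 lay wholly below (24.0%) and 1 above (22.4%), and within hypoxia likewise 6 below (21.6%) and 1 above (21.6%).

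Over both conditions CDKN1A averaged 21.1 ± 7.63 CPM in A2058 (SD, n = 4). Pooled over A375, SKMEL-5 and both conditions, CDKN1A averaged 251 ± 108 CPM (SD, n = 8), a spread that is not one of replicates. In normoxia it was 11.6-fold lower in A2058 (log2 -3.54 ± 0.61, edgeR adjusted p = 0.00218), and in hypoxia the log2 difference was -3.55 ± 0.61 (edgeR adjusted p = 0.00198). The highest A2058 library, at 28.5 CPM, lay below the lowest of the others, at 131 CPM. Against A375 alone the normoxic difference was -3.28 (edgeR adjusted p = 0.00600), and against SKMEL-5 alone it was -3.80 (edgeR adjusted p = 0.00294). Without the 3 libraries that stood apart, CDKN1A in hypoxia was at -2.55 ± 0.68 and missed the threshold (edgeR adjusted p = 0.0574).

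TP53I3 was lower in A2058 by 2.05 ± 0.35 on the log2 scale in normoxia (edgeR adjusted p = 0.00203) and by 2.29 ± 0.35 in hypoxia (edgeR adjusted p = 0.00106). Its 4 A2058 libraries held 5.81 to 11.7 CPM and the other 8 held 35.5 to 65.6 CPM. BAX was lower by 1.15 ± 0.29 in normoxia (edgeR adjusted p = 0.0194) and by 1.20 ± 0.29 in hypoxia (edgeR adjusted p = 0.0147), with 38.5 to 68.3 CPM in A2058 and 78.5 to 179 CPM in the other lines. FAS was lower by 2.48 ± 0.54 in hypoxia (edgeR adjusted p = 0.00751). In normoxia the FAS difference was -1.35 ± 0.50 (edgeR adjusted p = 0.0918). Reads of ACTA2 could not be separated from those of FAS in these line differences either. The test of unequal responses, which asks whether the line differences of FAS changed with oxygen, gave an unadjusted p of 0.135 (edgeR adjusted p = 1). MDM2 was lower by 1.49 ± 0.47 in normoxia (edgeR adjusted p = 0.0485), at the edge of the threshold, and the hypoxic difference was -1.22 ± 0.46 (edgeR adjusted p = 0.0860). Leaving out any 1 normoxic library ended the MDM2 call, with differences from -1.79 to -1.23. Against A375 alone MDM2 was at -1.31 (edgeR adjusted p = 0.127) and against SKMEL-5 alone at -1.66 (edgeR adjusted p = 0.0567). The normoxic BAX call was lost without either A2058 library, without A375 normoxia 2 and without SKMEL-5 normoxia 1, and its hypoxic call without either A2058 library; the FAS call was lost without A2058 hypoxia 2. Without the 3 libraries that stood apart, BAX in hypoxia was at -1.20 ± 0.40 (edgeR adjusted p = 0.121) and FAS at -1.44 ± 0.49 (edgeR adjusted p = 0.119), and TP53I3 kept its call at -1.997 ± 0.40 (edgeR adjusted p = 0.0201).

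GDF15 ran against the other 9. Over both conditions it averaged 141 ± 17.4 CPM in A2058 (SD, n = 4). Pooled over A375, SKMEL-5 and both conditions, it averaged 6.42 ± 7.16 CPM (SD, n = 8), so this SD is not one of replicates. In normoxia the difference was 94.8-fold (log2 6.57 ± 0.66, edgeR adjusted p = 9.13e-05). In hypoxia, where A375 and SKMEL-5 had more GDF15 than in normoxia, it was 11.4-fold (log2 3.52 ± 0.60, edgeR adjusted p = 0.00193). The hypoxia response of A2058 minus the mean response of the other lines was -3.05 ± 0.89 on the log2 scale, which missed the threshold over all genes (unadjusted p = 0.00575, edgeR adjusted p = 1.00); 1 of 10 members, GDF15, was under an unadjusted p of 0.05 here, against 3.32% of all genes. Without the 3 libraries that stood apart the hypoxic difference was 4.94 ± 0.47 (edgeR adjusted p = 0.00132).

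SESN1, SESN2, BBC3 and ZMAT3 did not pass the test between lines in either condition. Their differences were -0.48 (SESN1), -0.53 (SESN2), -0.61 (BBC3) and -0.19 (ZMAT3) in normoxia, and -0.45, -1.38, -1.11 and -0.60 for the same genes in hypoxia, with edgeR adjusted p from 0.115 to 0.849. Between A375 and SKMEL-5, over both conditions, 0 of 10 members were called and 0 had an unadjusted p under 0.05, where 0.0102% of all genes were called and 1.78% had such a p; that comparison was chosen after the correlations of these lines were seen.

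**Figure D4:**
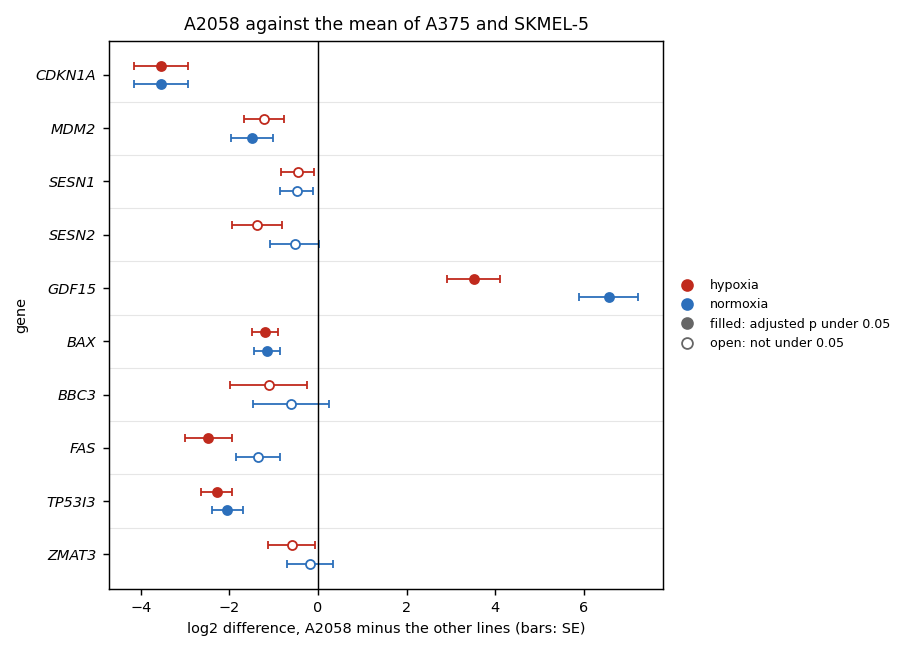
A2058 minus the mean of A375 and SKMEL-5 on the log2 scale for the 10 genes, in hypoxia (upper point) and normoxia (lower point), with bars of 1 SE and filled points for an adjusted p under 0.05. GDF15 is at 3.52 in hypoxia and 6.57 in normoxia, and the other 9 genes lie below 0.

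Per kilobase of exon, which allows genes to be set against each other, the order of the members differed between lines. In normoxic A2058 GDF15 had the highest level at 74.2 CPM per kb, BAX followed at 22.4, CDKN1A was at 6.86 and FAS was last at 1.28. In normoxic A375 CDKN1A led at 66.7 CPM per kb, ahead of BAX at 41.1, with TP53I3 at 17.1, MDM2 at 10.1 and GDF15 last at 0.832. In normoxic SKMEL-5 CDKN1A led again at 95.4 CPM per kb, ahead of BAX at 60.6, with GDF15 last at 0.738. The normoxic A375 libraries of CDKN1A, at 90.4 and 43.1 CPM per kb, overlapped those of BAX, at 38.2 and 44.1. In normoxic SKMEL-5 both CDKN1A libraries, at 118 and 72.5 CPM per kb, were above both BAX libraries, at 69.3 and 51.8.

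A wider list of 43 p53 targets, of which 42 were tested (SPATA18 had 1 count in all), had 0 genes called in hypoxia by edgeR in either direction, with a median of 0.13, against 0.017 over all tested genes; 4 had an unadjusted p under 0.05, against 19.0% of all genes. None of 16 regulators of p53 and none of 24 cell cycle genes that p53 lowers through the DREAM complex was called by edgeR. The regulators had a median of 0.0011 and 1 of them an unadjusted p under 0.05, and the cell cycle genes a median of -0.23 and 2 such genes. Of 15 genes of the integrated stress response, the ATF4 pathway that shares GDF15, SESN2 and BBC3 with p53, 2 rose (0.978% of all genes rose) and 0 fell, with a median of 1.29, and 9 had an unadjusted p under 0.05 (19.0% of all genes). They were VLDLR, a lipoprotein receptor (2.18 ± 0.32, edgeR adjusted p = 0.0120), and DDIT4, an mTORC1 inhibitor that hypoxia-inducible factor and p53 also induce (1.64 ± 0.25, edgeR adjusted p = 0.0161). Of the 15, 1 was called without the 3 libraries that stood apart (all genes 0.147%), with a median of 0.90. Whether this pathway acted on the members, and which regulator raised VLDLR and DDIT4, was not tested.

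Between lines in normoxia, 7 of the 42 wider targets were lower in A2058 (all genes 8.43%) and 3 higher (all genes 9.51%), with a median of -0.50, against -0.031 over all genes. EDA2R, a receptor of the tumour necrosis factor family, had 0 or 1 count in each A2058 library, against 9.07 to 32.3 CPM in the other 8. TNFRSF10A, a receptor for the death ligand TRAIL, was lower by 2.81 ± 0.69 (edgeR adjusted p = 0.0163), at 1.31 and 4.93 CPM in normoxic A2058 against 14.0 to 25.1 CPM in the other normoxic libraries. TRIM22, an interferon-inducible ligase, was lower as well (edgeR adjusted p = 0.0186), at 1 and 2 counts (0.0257 and 0.0551 CPM) in normoxic A2058, against 0.332 to 2.195 CPM in the other normoxic libraries. DDB2, which finds ultraviolet damage in DNA, was lower by 2.06 ± 0.30 (edgeR adjusted p = 0.000886), and BTG2, EPHA2 and RRM2B were the remaining lower genes. STEAP3, an iron reductase, was higher by 2.45 ± 0.34 (edgeR adjusted p = 0.000664), at 27.2 and 43.0 CPM in normoxic A2058 against 5.51 to 7.37 CPM in the other normoxic libraries. RAP2B, a small GTPase, was higher by 1.02 ± 0.27 (edgeR adjusted p = 0.0215). PTP4A1, a phosphatase, was the other higher gene; it shares its locus with a coding gene on the same strand, so its counts are uncertain. In hypoxia 10 of 42 were lower (all genes 9.95%) and 3 higher (all genes 11.2%), with a median of -0.42, against -0.055 over all genes. Leaving out the 3 libraries that stood apart gave 5 lower (all genes 4.01%) and 2 higher (all genes 5.27%).

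**Figure D5:**
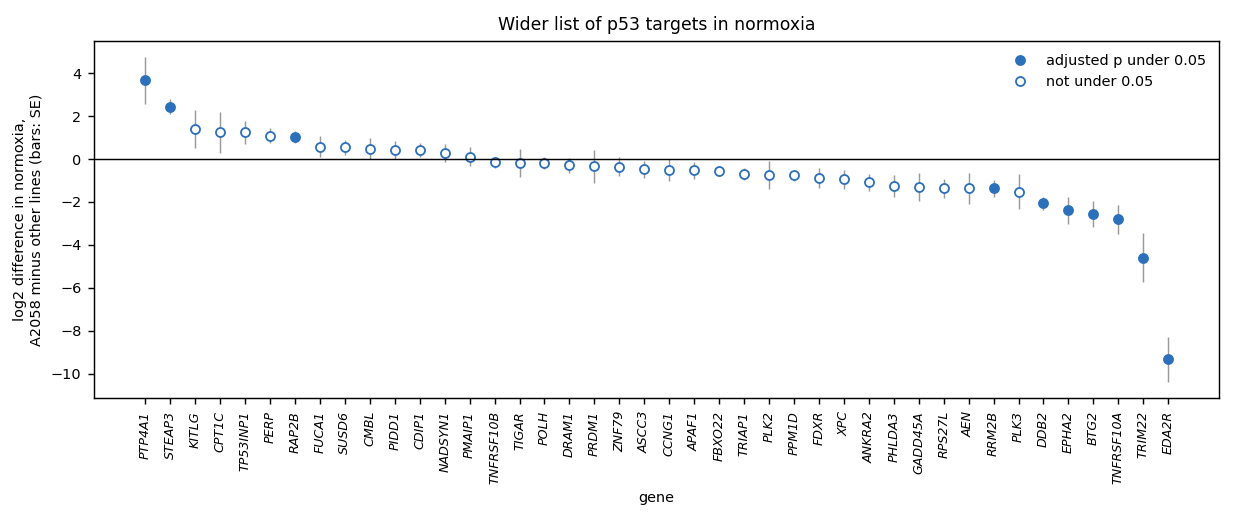
A2058 minus the mean of A375 and SKMEL-5 on the log2 scale in normoxia for the 42 tested genes of the wider list, ordered by difference, with bars of 1 SE and filled points for an adjusted p under 0.05. Of these, 7 called genes lie below 0 and 3 above; the fitted value of EDA2R, with 0 or 1 count in each A2058 library, depends on the fit's handling of zeros.

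Of the 16 regulators, CDKN2A and ATM were higher in A2058 in normoxia (all genes 9.51%) and 0 were lower (all genes 8.43%). CDKN2A, whose locus encodes the kinase inhibitor p16 and the MDM2 inhibitor ARF, had 200 and 148 CPM in hypoxic A2058 and 180.4 and 88.6 CPM in normoxic A2058. CDKN2A in A375 was at 93.1 and 3.66 CPM in hypoxia and 4.93 and 2.91 CPM in normoxia, and in SKMEL-5 55.7 and 6.74 CPM in hypoxia and 6.47 and 2.94 CPM in normoxia. The normoxic difference was 4.97 ± 1.01 (edgeR adjusted p = 0.00588), and the high values of A375 and SKMEL-5 were in the libraries that stood apart. A count per gene does not separate the 2 products. ATM, the kinase that signals double-strand breaks to p53, was higher by 1.09 ± 0.27 in normoxia (edgeR adjusted p = 0.0184). In hypoxia CDKN2A (2.16 ± 0.95, edgeR adjusted p = 0.133) and ATM (0.79 ± 0.28, edgeR adjusted p = 0.0648) were not called. There 1 regulator was higher (all genes 11.2%) and 0 were lower (all genes 9.95%). It was CHEK2 (1.35 ± 0.37, edgeR adjusted p = 0.0259), named after its values were seen to complete the count. Without the 3 libraries that stood apart 1 regulator was higher in hypoxia (all genes 5.27%) and 0 were lower (all genes 4.01%). Of the 15 stress genes 2 were higher in A2058 in normoxia (all genes 9.51%) and 0 were lower (all genes 8.43%). They were NUPR1 (10.6 and 12.2 CPM in A2058, against 0.0169 to 0.332 CPM in the other normoxic libraries, edgeR adjusted p = 0.000607) and VLDLR (2.21 ± 0.44, edgeR adjusted p = 0.00526). In hypoxia NUPR1 was the 1 stress gene higher in A2058 (edgeR adjusted p = 0.00127, all genes 11.2%), and VLDLR was not called (0.68 ± 0.45, edgeR adjusted p = 0.318). DDIT3, ASNS and ATF3, named after their values were seen to complete the count, were lower (all genes 9.95%), with a list median of -0.87. With the 3 libraries that stood apart left out, 1 stress gene was higher (all genes 5.27%) and 0 were lower (all genes 4.01%) in hypoxia. Of the 24 cell cycle genes 0 were higher (all genes 9.51%) and 1 was lower (all genes 8.43%) in normoxia, with a list median of -0.47. It was RRM2, a ribonucleotide reductase subunit (-1.85 ± 0.56, edgeR adjusted p = 0.0427). RRM2 was not called in hypoxia (-1.42 ± 0.55, edgeR adjusted p = 0.0925), where 0 of the 24 were called in either direction.

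Likeness within lines was computed to CDKN1A and to MDM2. After each line's mean was subtracted from log2 CPM, the genes most like CDKN1A over the 12 libraries, among 9730 with at least 10 CPM on average, were DTWD1 (r = 0.899), SPRY2 (0.857), PMEPA1 (0.814), SSUH2 (0.809) and EYA4 (0.808). The member nearest to CDKN1A was FAS at r = 0.573, rank 136, and MDM2 was at r = 0.144, rank 2578. The genes most like MDM2 were LYRM2 (r = 0.951), SEPTIN7P11 (0.946), a pseudogene that may share reads with its parent, FAM78B (0.944), MTF2 (0.939) and DUSP14 (0.939). TP53I3 was the nearest member to MDM2 at r = 0.805, rank 451, and BBC3 was the farthest at r = -0.774. SEPTIN7P11 had 0 to 4 counts and SSUH2 2 to 15 counts in the A2058 libraries, so their A2058 values rest on few reads. The 12 points share the 3 libraries that stood apart, and these correlations are a description only.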

How the data were processed

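Per the labels' protocols, total RNA was made into libraries with a NuGen mRNA kit. Per the submitters' processing notes, STAR 2.5.0a on GRCh38, Trim Galore 0.6.1 and bcl2fastq 2.20 were used; neither the counting tool nor its annotation or strand setting is given in the sources used here. The authors deposited raw counts per gene for all 12 libraries, matched to samples by title. Symbols came from a table of gene names (60445 of 60656 IDs matched, version ignored), positions from GENCODE 29.

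In R 4.3.3, edgeR 4.0.16 kept genes with filterByExpr (minimum count 10, minimum total 15), scaled by TMM, fitted 1 mean per group to all 12 libraries (6 residual degrees of freedom, 5.02 prior; common biological coefficient of variation 0.453) and ran quasi-likelihood tests with Benjamini-Hochberg adjustment over 19636 genes. SE was derived from each log2 change and its F statistic, as their ratio with F square-rooted. log2 CPM used a prior count of 2; marker and hypoxia-gene sums are CPM of the library total. limma 3.58.1 (voom), DESeq2 1.42.0, another filter, no filter, a replicate block, single lines and left-out libraries were alternatives; scripts were tested on simulated data. p-values measure the spread between these libraries. Replicates differed far beyond counting noise (median chi-square per gene 12.4 to 62.2), so none was a copy of the other's counts. This does not tell biological from technical replicates.

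The members and lists were chosen with earlier results of these data known. Genes that are not reported here were left out of the wider target list and of the regulators, so the counts and medians of these lists are over the other genes. Named were the 10 members, MDM4 and PPM1D, up to 3 called genes per direction with the largest change of each other list in the 3-line mean and in A2058 against other lines in normoxia, the 5 genes most like CDKN1A and the 5 most like MDM2, and CA9 and VEGFA as label checks. CA9 (6.77 ± 1.18, edgeR adjusted p = 0.0257) and VEGFA (1.82 ± 0.26, edgeR adjusted p = 0.0116) were higher in hypoxia. Normoxic CA9 was higher in replicate 1 than in replicate 2 in each line. The values were 19.0 and 0.0826 CPM (A2058), 4.91 and 0.805 CPM (A375), and 9.81 and 0.223 CPM (SKMEL-5). All hypoxic libraries held at least 351.9 CPM of CA9, and the cause of the normoxic split was not tested. BTG2, EPHA2, RRM2B and DDB2 were named to complete a count, after their values were seen. Of the members 7 overlap another annotated gene; apart from ACTA2 (mean 11.8 CPM, beside FAS) and CPM, a carboxypeptidase gene beside MDM2 (mean 5.05 CPM), the overlapping genes averaged at most 1.46 CPM.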

Additional observations from a re-analysis of the deposited data

How the results depend on the processing

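Each group had 2 libraries, and the SE of the members' 3-line means ran from 0.19 (BAX) to 0.57 (BBC3). The count of members called in the 3-line mean was 0; it was 1 with DESeq2, 3 without the low-count filter (GDF15, BBC3, ZMAT3) and 0 to 2 with 1 library left out (2 without A375 hypoxia 2). In A375 it was 2 without the filter, and in SKMEL-5 1 with DESeq2 and 1 without the filter, in place of 0; the test of unequal responses called 1 (GDF15) without the filter. Unfiltered, edgeR called 1855 genes in the 3-line mean, DESeq2 1543 and limma-voom 178, in place of 220. The cause was not tested. For the single lines, the unequal responses, A375 alone and the left-out libraries, the share of all genes is not given in this paragraph. Those counts are a description only, since the number of all genes called also moved between settings. Against other lines in normoxia the count of 5 was 3 against A375 alone and 3 to 6 with 1 library left out; in hypoxia it was 2 without the 3 libraries that stood apart (chosen after seeing the data) and 3 to 6 with 1 left out (3 without A2058 hypoxia 2).

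Some directions turned, among them those of BBC3 (1.53 with all libraries) and of ZMAT3 between lines in hypoxia (-0.60). In the 3-line mean, without the 3 libraries, CDKN1A was at -0.22, BBC3 at -0.019 and FAS at -0.19. SESN2 was at -0.052 with limma-voom, -0.055 over A2058 and A375 and -0.018 over A2058 and SKMEL-5; FAS was at -0.28 over A2058 and SKMEL-5. ZMAT3 between lines was at 0.018 against A375 alone in normoxia and at 0.46 without the 3 libraries in hypoxia. With 1 library left out, 3-line means ran from -0.28 to 0.24 for CDKN1A, -0.16 to 0.38 for FAS and -0.53 to 0.38 for SESN2, and the normoxic ZMAT3 difference from -0.38 to 0.040. BAX in normoxia lost its call against A375 alone (-0.87).

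Same-numbered deviations correlated at -0.30 for A2058, 0.23 for A375 and 0.26 for SKMEL-5. These values, of mixed sign, do not settle whether hypoxic and normoxic samples were paired. The main fit used no pairing. With the replicate block 0 members were called in each hypoxia comparison, SESN2 was at -0.077 and 91 genes were called in the 3-line mean; with the A2058 numbers crossed, 609 genes and 0 members.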
